A study of Homo sapiens with 16 samples.

Results

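TCF7, LEF1, TCF7L1, TCF7L2, CTNNB1, IKZF1, ETS1, SATB1, BCL11B and TOX are 10 genes for the TCF/LEF transcription factors, their partner beta-catenin and other factors tied to T cell identity. They were taken by symbol, and all 10 were found among the 60662 genes of the count tables. RNA-seq had been run on Jurkat E6-1, an established human T cell line that the labels call wild type and class as lymphoma. The peroxide group held 8 libraries of cells put in phosphate-buffered saline (PBS) for 4 h with hydrogen peroxide, at a labelled dose of 10 µM per 1000000 cells. The control group held 8 libraries of untreated cells taken at 0 h. The labels do not say whether control cells were also put in PBS, so peroxide, the time in culture and any change of medium cannot be told apart. The names of the deposited tables split each group into batch 1 and batch 2, with 4 libraries of each group per batch, and the sources used here do not say what a batch was. The labels number the libraries as biological replicates of 1 line and do not say whether they came from separate cultures, so p-values measure the spread between these libraries.

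TCF7 encodes TCF-1 and LEF1 encodes its close relative, which bind DNA through a high mobility group (HMG) box. Without Wnt signal a destruction complex of APC, AXIN, casein kinase and GSK3 marks beta-catenin for breakdown, and TCF/LEF factors sit with TLE corepressors. When beta-catenin escapes, it enters the nucleus and turns these factors into activators. In the thymus TCF-1, BCL11B and Ikaros (IKZF1) help to set and hold the T cell programme. Jurkat cells keep many of these factors.

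Reads in genes ran from 5556553 to 15720881 per library. All 11 T cell markers were found in both groups, with group means of 95.7 to 803.1 CPM in peroxide libraries and 98.5 to 785.5 CPM in controls. Of these 11, CD3G and CD2 were called lower after peroxide, where 24.3% of all genes tested were, and the other 9 were not called. CPM are read counts per 1000000 reads of a library, scaled between libraries by the TMM method. Of 7 B cell markers MS4A1, PAX5 and CD22 had at most 2 reads in either group. The list summed to 33.4 to 58.6 CPM in peroxide libraries and 32.7 to 53.2 CPM in controls, with CD79A at 43.6 ± 10.4 and 40.7 ± 6.64 CPM (SD, n = 8 each). The 8 myeloid markers summed to 7.34 to 18.8 CPM in peroxide libraries and 1.75 to 5.42 CPM in controls. FCGR3A had 0 reads in all peroxide libraries and 1 in all controls, and SPI1 had 11 and 0. The 3 myeloid markers tested, CD14, CEBPA and ITGAM, were all called higher in peroxide libraries, where 24.1% of all genes tested were. However, CD14 and ITGAM passed the filter on low counts through those libraries alone, which favours a higher call. The part of the myeloid difference in the results below was not tested. Of the 6 erythroid markers, HBG1 and HBG2 had 0 reads in all libraries, and the list summed to at most 2.17 CPM. In bulk RNA, fewer cells of a kind and less RNA per cell cannot be told apart.

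Most of the T cell factors had moderately lower transcript levels after peroxide, while beta-catenin was higher. IKZF1, ETS1, SATB1, TCF7, LEF1 and BCL11B fell by 15.5% to 28.1%, CTNNB1 rose by 21.9%, and TCF7L1, with few reads in any library, rose 2.83-fold. TCF7L2 and TOX did not pass the test. Thus 8 of the 10 were called at an adjusted p under 0.05 with edgeR's quasi-likelihood test, against 48.3% of the 14092 genes tested, with 2 higher (24.1% of all genes were) and 6 lower (24.3% of all genes were). All 10 were tested, but TCF7L1 passed the filter on low counts through its peroxide libraries alone, which favours a higher call. Among all genes tested 582 passed that way, and 501 of these were called higher. The median log2 fold change was -0.26 over the 10 and -0.01 over all genes tested. Scaled by total counts in place of TMM, the genes called in the whole table split into 2822 higher and 4375 lower, against 3391 and 3419, and the median of all genes was -0.08. Under that scaling 2 of the 10 genes were likewise higher and 6 lower, with a median of -0.32.

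**Figure D1:**
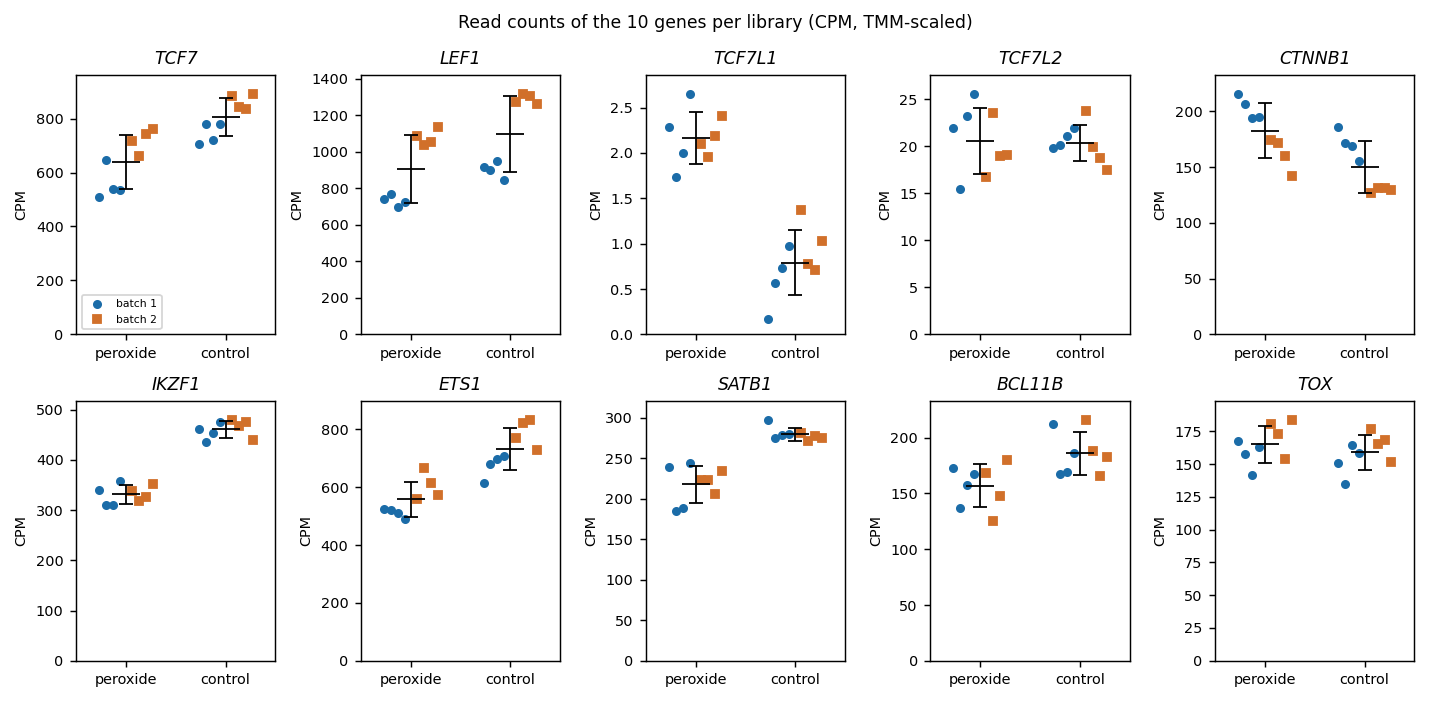
CPM (TMM-scaled, vertical axes from 0) of each of the 10 genes in the 8 peroxide and 8 control libraries. Circles are batch 1 and squares batch 2, the bar is the mean and the whiskers are the SD (n = 8). IKZF1 and SATB1 lie lower in all peroxide libraries than in any control, TCF7L1 lies higher in all, and TCF7, LEF1, ETS1 and CTNNB1 separate only within a batch.

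TCF7 and LEF1 fell together. The promoter runs set this pair beside IKZF1, which fell most, and CTNNB1, which rose. Each run is the 250 bases before the RefSeq start on GRCh38.p14, read in the direction of the gene. The TCF7 run lies at chr5:134115363-134115612 on the plus strand and the LEF1 run at chr4:108166302-108166551 on the minus strand. The IKZF1 run lies at chr7:50304466-50304715 and the CTNNB1 run at chr3:41199255-41199504, both on the plus strand. For TCF7 and IKZF1, which have several RefSeq starts, the first listed window was used. Capitals mark a match to the ETS motif CCGGAAGT.
TCF7: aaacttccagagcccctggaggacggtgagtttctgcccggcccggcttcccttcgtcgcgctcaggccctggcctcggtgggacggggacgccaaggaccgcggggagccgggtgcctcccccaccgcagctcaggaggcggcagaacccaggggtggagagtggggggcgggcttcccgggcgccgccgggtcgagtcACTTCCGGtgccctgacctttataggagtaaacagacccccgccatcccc
LEF1: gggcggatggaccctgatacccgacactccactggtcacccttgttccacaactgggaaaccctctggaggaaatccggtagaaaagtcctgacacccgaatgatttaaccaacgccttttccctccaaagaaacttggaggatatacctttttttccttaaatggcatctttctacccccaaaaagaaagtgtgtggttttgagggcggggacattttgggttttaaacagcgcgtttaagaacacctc
IKZF1: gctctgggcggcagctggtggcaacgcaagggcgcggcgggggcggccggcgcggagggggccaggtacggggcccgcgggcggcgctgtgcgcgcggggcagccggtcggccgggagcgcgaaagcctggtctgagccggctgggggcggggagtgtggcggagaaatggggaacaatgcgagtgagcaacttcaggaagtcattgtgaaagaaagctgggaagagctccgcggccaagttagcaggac
CTNNB1: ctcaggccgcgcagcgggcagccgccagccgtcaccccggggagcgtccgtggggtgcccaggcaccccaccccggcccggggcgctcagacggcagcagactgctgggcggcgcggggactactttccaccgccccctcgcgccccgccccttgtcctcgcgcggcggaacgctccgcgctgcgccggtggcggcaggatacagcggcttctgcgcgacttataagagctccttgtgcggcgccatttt

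The TCF7 run holds the ETS motif as its complement, ACTTCCGG, beginning 50 bases before the start. G and C made up 70.8% of the TCF7 run, 71.2% of the IKZF1 run, 74.4% of the CTNNB1 run and 47.6% of the LEF1 run. The CpG dinucleotide occurred 22 times in TCF7, 28 in IKZF1, 34 in CTNNB1 and 8 in LEF1. RefSeq windows of 300 bases, 250 before and 50 after a start, were matched for 8 of the 10 genes, which had 16 windows between them, and none was used for ETS1 and TOX. On both strands these were searched for TCF/LEF motifs (CTTTGAA or CTTTGAT), AP-1 motifs (TGAGTCA or TGACTCA), the cyclic AMP response element TGACGTCA and the ETS motif. The 2 forms of the AP-1 motif are complements of each other, and no other motif searched holds another. The ETS match in TCF7 was the 1 match in the 16 windows. Among 35116 windows of all genes 6.86% held a TCF/LEF motif, 4.95% an AP-1 motif, 1.85% the cyclic AMP response element and 4.14% the ETS motif.

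TCF7 (ENSG00000081059.20) ranged from 511.1 to 761.0 CPM in peroxide libraries, with a median of 653.8, and from 704.0 to 891.6 CPM in controls, with a median of 808.5. The groups overlapped when batches were pooled and were apart within each. In batch 1 the peroxide libraries held 511.1 to 646.2 CPM and the controls 704.0 to 781.5 CPM. In batch 2 the peroxide libraries held 661.4 to 761.0 CPM and the controls 835.5 to 891.6 CPM. TCF7 fell by 0.34 on the log2 scale (SE 0.06, adjusted p = 6.07e-05), with -0.42 ± 0.08 in batch 1 and -0.26 ± 0.08 in batch 2 (SE). The difference between the batches was not called (interaction adjusted p = 0.436).

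LEF1 (ENSG00000138795.10) ranged from 698.3 to 1136.7 CPM in peroxide libraries, with a median of 902.4, and from 846.8 to 1317.9 CPM in controls, with a median of 1107.3. The overlap was between libraries of different batches. In batch 1 the peroxide libraries held 698.3 to 767.9 CPM and the controls 846.8 to 950.0 CPM, and in batch 2 they held 1036.8 to 1136.7 CPM and 1264.7 to 1317.9 CPM. LEF1 fell by 0.28 on the log2 scale (SE 0.05, adjusted p = 5.49e-05), with -0.30 ± 0.06 and -0.26 ± 0.06 in batches 1 and 2 (SE). Without a batch term its change was -0.28 ± 0.14 and the call was lost (adjusted p = 0.128). Counted against each other within a library, LEF1 had 1.41 ± 0.127 reads per TCF7 read in peroxide libraries and 1.36 ± 0.175 in controls (SD, n = 8 each). The groups overlapped in each batch. This ratio follows from the falls of the 2 genes, which had been seen before, and is given as a description with no test. No p-values are given for the 3 ratios computed, since the levels already fix much of their outcome.

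TCF7L1 (ENSG00000152284.5), a TCF factor known mainly as a repressor in mouse embryonic stem cells, had few reads. There were 12 to 25 reads in each peroxide library, 148 in all, and 2 to 13 reads in each control, 63 in all. That is 1.73 to 2.65 CPM after peroxide, with a median of 2.14, and 0.166 to 1.38 CPM in controls, with a median of 0.752. All 8 peroxide libraries lay above all 8 controls, as they did in 6.76% of all genes tested. It rose 2.83-fold, with a 95% interval of 1.02 to 1.98 on the log2 scale (adjusted p = 1.61e-05). The log2 fold change was 1.89 ± 0.34 in batch 1, where control 1 had 2 reads, and 1.22 ± 0.30 in batch 2 (SE).

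TCF7L2 (ENSG00000148737.17), the TCF factor best known from intestinal epithelium, ranged from 15.5 to 25.6 CPM in peroxide libraries, with a median of 20.5, and from 17.5 to 23.8 CPM in controls, with a median of 20.0. The groups overlapped fully, and the log2 difference was 0.02 ± 0.10 (SE, adjusted p = 0.895) with a 95% interval of -0.18 to 0.22. Its estimate was 0.06 in batch 1, -0.02 in batch 2 and -0.04 with total-count scaling, none of them called. Together TCF7L1 and TCF7L2 gave 15.1 ± 4.53 of every 1000 reads of the 4 TCF/LEF genes in peroxide libraries and 11.2 ± 1.96 in controls (SD, n = 8 each). The groups overlapped in each batch. This share follows from the levels of the same genes, of which TCF7 and LEF1 fell, and is given as a description with no test.

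CTNNB1 (ENSG00000168036.18) encodes beta-catenin, the coactivator of the TCF/LEF factors and a link between cadherins and the cytoskeleton. It ranged from 142.4 to 215.7 CPM in peroxide libraries, with a median of 184.2, and from 127.1 to 185.6 CPM in controls, with a median of 143.3. In batch 1 the peroxide libraries held 193.7 to 215.7 CPM and the controls 155.1 to 185.6 CPM. In batch 2 they held 142.4 to 174.6 CPM and 127.1 to 131.5 CPM, so the groups were apart in each batch. CTNNB1 rose by 0.29 ± 0.05 on the log2 scale (SE, adjusted p = 0.000173), with 0.25 ± 0.07 in batch 1 and 0.32 ± 0.07 in batch 2.

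Set against the TCF/LEF reads of the same library, which needs no scaling between libraries, CTNNB1 had 121.9 ± 36.1 reads per 1000 in peroxide libraries and 80.8 ± 23.1 in controls (SD, n = 8 each). The ratio was 144.3 to 168.8 in peroxide libraries and 94.2 to 113.1 in controls of batch 1. In batch 2 it was 74.2 to 99.5 in peroxide libraries and 58.3 to 60.6 in controls. The groups were apart in both batches. That separation follows from the levels above, with CTNNB1 higher and TCF7 and LEF1 lower in every peroxide library than in any control of the same batch, so the ratio is a description with no test. The ratios were chosen after the levels had been seen.

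**Figure D2:**
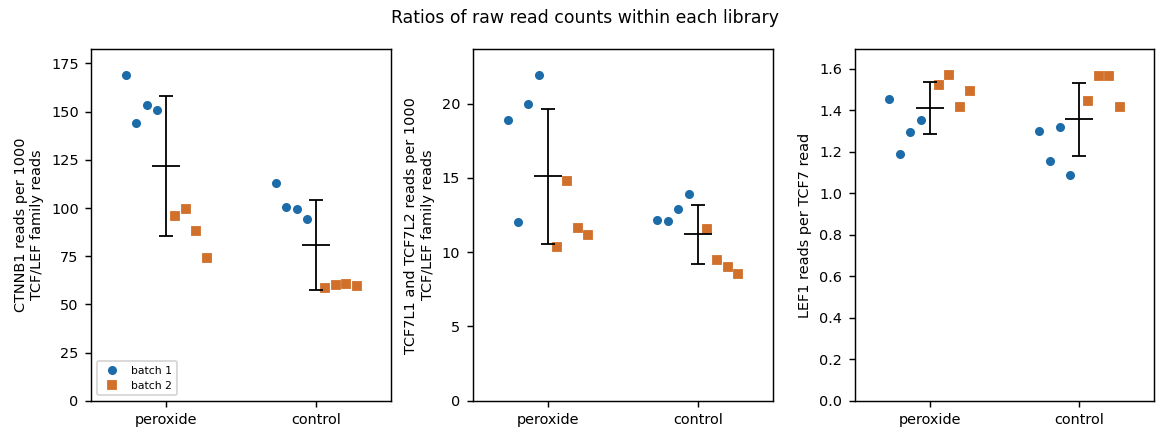
Ratios of raw read counts within each of the 8 peroxide and 8 control libraries (vertical axes from 0), with circles for batch 1, squares for batch 2, and mean ± SD over 8 libraries. CTNNB1 reads per 1000 TCF/LEF family reads averaged 121.9 after peroxide and 80.8 in controls and separate within each batch, while LEF1 reads per TCF7 read overlap.

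IKZF1 (ENSG00000185811.19) encodes Ikaros, a zinc finger factor of lymphoid development that is often mutated in lymphoid leukaemia. It ranged from 309.2 to 358.4 CPM in peroxide libraries, with a median of 332.7, and from 435.5 to 479.3 CPM in controls, with a median of 464.4. All peroxide libraries lay below all controls, as in 4.49% of all genes tested, and each group varied little. IKZF1 fell by 0.48 on the log2 scale (SE 0.05, adjusted p = 8.67e-08), and the batches gave -0.47 ± 0.07 and -0.48 ± 0.07 (SE).

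ETS1 (ENSG00000134954.14), founder of the ETS factors and abundant in resting lymphocytes, ranged from 490.8 to 668.4 CPM in peroxide libraries, with a median of 542.6, and from 616.3 to 832.5 CPM in controls, with a median of 717.6. It separated within batches, with 490.8 to 526.6 CPM after peroxide and 616.3 to 707.8 CPM in controls in batch 1, and 558.6 to 668.4 against 727.5 to 832.5 CPM in batch 2. ETS1 fell by 0.39 on the log2 scale (SE 0.05, adjusted p = 3.77e-06), by 0.40 and 0.38 in the 2 batches.

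SATB1 (ENSG00000182568.17), a chromatin organiser of thymocytes, ranged from 184.8 to 244.0 CPM in peroxide libraries, with a median of 222.9, and from 271.0 to 296.9 CPM in controls, with a median of 278.0. No peroxide library reached the lowest control. The controls lay close together, and the peroxide libraries of batch 1 split into 184.8 and 188.2 CPM in replicates 2 and 3 and 239.3 and 244.0 CPM in replicates 1 and 4. SATB1 fell by 0.36 on the log2 scale (SE 0.06, adjusted p = 5.04e-05).

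BCL11B (ENSG00000127152.18), a zinc finger factor that holds T cell commitment in mice, ranged from 125.1 to 180.2 CPM in peroxide libraries, with a median of 162.8, and from 165.3 to 215.8 CPM in controls, with a median of 184.3. The groups overlapped in both batches. BCL11B fell by 0.24 on the log2 scale (SE 0.08, adjusted p = 0.0135), the smallest of the 6 falls. Fitted alone, neither batch passed, with -0.21 ± 0.10 (SE, adjusted p = 0.102) in batch 1 and -0.27 ± 0.11 (SE, adjusted p = 0.0592) in batch 2.

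TOX (ENSG00000198846.6), an HMG box factor needed for CD4 T cells in the mouse thymus and linked to T cell exhaustion, ranged from 141.5 to 183.5 CPM in peroxide libraries, with a median of 165.3, and from 134.7 to 177.1 CPM in controls, with a median of 161.7. The groups overlapped, and the log2 difference was 0.05 ± 0.06 (SE, adjusted p = 0.461) with a 95% interval of -0.07 to 0.18. With total-count scaling it was -0.01.

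**Figure D3:**
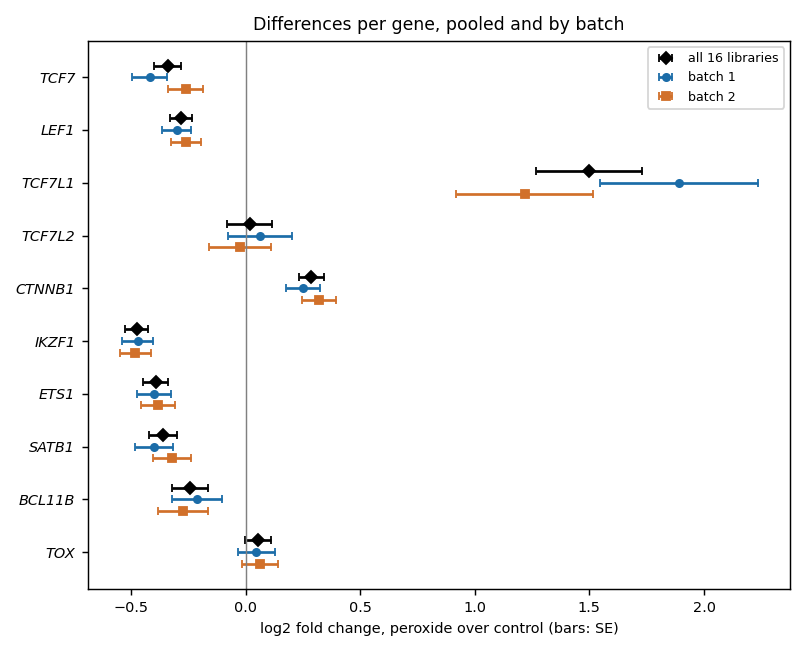
Log2 fold change of peroxide over control for the 10 genes, with black diamonds for all 16 libraries, circles for batch 1 and squares for batch 2, and bars for the SE. The 6 lower genes lie between -0.24 and -0.48 and CTNNB1 at 0.29 in all libraries, and for all 10 genes except TCF7L2 both batches give the same sign.

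Within both batches at once, the peroxide libraries lay below all controls for 5 genes (TCF7, LEF1, ETS1, IKZF1 and SATB1), as in 8.74% of all genes tested, and above them for CTNNB1 and TCF7L1, as in 10.5%. The interaction of batch and peroxide was called for 0 of the 10 genes by edgeR, with 0 at an unadjusted p under 0.05, against 4.88% of all genes called. Levels themselves differed between batches for 4 of the 10 (edgeR, adjusted p under 0.05), against 51.2% of all genes. Batch 2 exceeded batch 1 by 0.54 ± 0.05 in LEF1, 0.29 ± 0.06 in TCF7 and 0.23 ± 0.05 in ETS1 on the log2 scale (SE), and CTNNB1 was lower in batch 2 by 0.36 (log2 difference -0.36 ± 0.05). Reads without a unique alignment made up 40.8% ± 4.46 of counted reads in peroxide libraries and 32.8% ± 0.941 in controls of batch 2, and 35.9% ± 2.83 and 35.3% ± 7.98 in batch 1 (SD, n = 4 each). Without the 2 libraries with the largest such share (control 1 and peroxide 5) the same counts of 2 higher and 6 lower were found. In that run 45% of all genes tested were called.

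Divided by the length of their exons, the levels of the 10 genes can be set in order. LEF1 led with 169.1 ± 35.0 CPM per kb in peroxide libraries and 204.7 ± 39.1 in controls (SD, n = 8 each). ETS1 followed with 78.1 ± 8.37 and 102.4 ± 10.2, and TCF7 with 63.5 ± 9.87 and 79.95 ± 6.97 CPM per kb. The ranges of ETS1 and TCF7 overlapped in both groups, although ETS1 was the higher in all 16 libraries. IKZF1 and TOX changed places, since TOX exceeded IKZF1 in 8 of 8 peroxide libraries (40.0 ± 3.42 against 30.3 ± 1.70 CPM per kb) and in 0 of 8 controls (38.4 ± 3.17 against 42.2 ± 1.52, where the ranges overlapped). BCL11B had 20.0 ± 2.41 CPM per kb in peroxide libraries and 23.7 ± 2.48 in controls, and its range overlapped that of SATB1 in both groups. SATB1 had 16.2 ± 1.69 in peroxide libraries, a range shared with CTNNB1 at 15.3 ± 2.07, whereas in controls SATB1 at 20.8 ± 0.585 stood clear of CTNNB1 at 12.6 ± 1.94 CPM per kb. TCF7L2 had 3.05 ± 0.525 and 3.02 ± 0.287, and TCF7L1 0.491 ± 0.0648 and 0.179 ± 0.0807 CPM per kb. Lengths are all annotated exons joined, and the order of near neighbours depends on that choice.

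The genes with profiles most like IKZF1 and ETS1, the 2 called members with the smallest p, were sought among 10865 genes by the root mean square difference between log2 CPM over the 16 libraries, each profile centred on its own mean. MFSD6 (0.0635), TGFBRAP1 (0.0640) and TANGO2 (0.0677) were closest to IKZF1, where the median gene stood at 0.326. NFATC2 (0.0582), INPP4A (0.0646) and ZNF592 (0.0766) were closest to ETS1, where the median gene stood at 0.323. NFATC2, a calcium-responsive factor of T cell activation, had a log2 fold change of -0.39 ± 0.06 (SE). INPP4A had -0.45 and ZNF592 -0.40, beside -0.39 for ETS1. MFSD6, TGFBRAP1 and TANGO2 had -0.45, -0.49 and -0.47, beside -0.48 for IKZF1. These genes were picked as the nearest, so they lie below the median by choice, and shared regulation was not tested. Among the 10 genes themselves IKZF1 and SATB1 were the most alike (0.0895) and TCF7 and ETS1 came next (0.134).

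Genes of the beta-catenin destruction complex and the Wnt receptors were called in both directions. Of 26 tested of 28, 5 were higher and 11 lower, where 24.1% and 24.3% of all genes tested were, with a median log2 fold change of -0.06. CSNK1D, a casein kinase, rose to 206.9 ± 27.6 CPM in peroxide libraries, against 134.0 ± 8.72 CPM in controls (SD, n = 8 each; log2 fold change 0.62 ± 0.06, SE). The other casein kinases in the list were named after their values were seen. CSNK1E was called higher (0.32 ± 0.07) and CSNK1A1 was not called (0.04 ± 0.06, log2 scale, SE). APC2, a relative of the scaffold APC, had 8.70 ± 1.45 CPM in peroxide libraries and 3.83 ± 0.955 CPM in controls (SD, n = 8 each). APC2 rose by 1.16 ± 0.15 on the log2 scale (SE). The receptor FZD7 had 6.77 ± 3.21 CPM in peroxide libraries and 1.14 ± 0.852 CPM in controls (SD, n = 8 each) and passed the filter through its peroxide libraries alone. The scaffold AXIN1 and the kinase GSK3B stood at 0.12 ± 0.06 and 0.01 ± 0.07 and APC at -0.07 ± 0.08, on the log2 scale (SE), none of them called. These 3 genes were picked with their values in view, as were the next 4. GSK3A was called higher (0.22 ± 0.07, SE). Among the 11 lower were AMER1 at -0.61 ± 0.09, LRP5 at -0.32 ± 0.08 and LRP6 at -0.31 ± 0.07 on the log2 scale (SE).

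Among 21 tested of 22 cofactors of TCF and beta-catenin, 3 were higher and 7 lower, a called share near the 48.3% of all genes tested, with a median of -0.13. CTBP2, among the higher genes and named after its value was seen, passed the filter through its peroxide libraries alone. PYGO2, which with BCL9 joins beta-catenin to chromatin, fell to 72.7 ± 11.6 CPM in peroxide libraries, against 134.7 ± 10.9 CPM in controls (SD, n = 8 each; log2 fold change -0.89 ± 0.08, SE). BCL9 itself fell by 0.54 and HIPK2, a nuclear kinase that phosphorylates TCF factors, fell by 0.44 on the log2 scale. Of the TLE corepressors, named after their values were seen, TLE4 rose by 0.44 ± 0.10, and TLE1, TLE2, TLE3 and TLE5 were not called, with -0.13 to 0.09.

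Of 23 common target genes of TCF and beta-catenin, 13 had enough reads to be tested. Of these 3 were higher and 6 lower (TCF7 and LEF1 among them), where 24.1% and 24.3% of all genes tested were, with a median of -0.06. SP5, not called, passed the filter through its control libraries alone and was named after its value was seen. LGR5, a stem cell receptor of the gut, had 173 reads in all peroxide libraries and 5 in all controls, and it passed the filter through its peroxide libraries alone. FZD7, described above, is also in this list, and MYC fell by 0.68 on the log2 scale. AXIN2, the most general readout of the pathway, had 15.0 ± 3.73 CPM in peroxide libraries and 12.7 ± 3.97 CPM in controls (SD, n = 8 each), a log2 difference of 0.26 ± 0.11 (SE) that was not called (adjusted p = 0.0581). It was chosen after its value was seen.

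Of 35 tested of 41 other lymphoid transcription factors, 6 were higher and 11 lower, a called share near the 48.3% of all genes tested, with a median of -0.05. TAL1, a leukaemia oncogene active in Jurkat cells, fell to 182.4 ± 22.5 CPM in peroxide libraries, against 296.3 ± 55.0 CPM in controls (SD, n = 8 each). IKZF4, a relative of Ikaros, had 224 reads in all peroxide libraries and 16 in all controls, and TBX21, the factor of type 1 helper T cells, had 176 and 40, and both passed the filter through their peroxide libraries alone. Other relatives of the members were named after their values were seen. IKZF2 fell by 0.92 and IKZF3 fell by 0.43 on the log2 scale, while IKZF5 rose by 0.54 ± 0.09. BCL11A fell by 0.58 on the log2 scale, and ETS2 rose by 0.39 ± 0.09 where ETS1 fell. TOX2 and TOX4 were not called, with 0.15 ± 0.16 and 0.09 ± 0.05.

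T cell surface and receptor genes were lower or not called. By edgeR 0 of 32 were higher and 14 lower, where 24.1% and 24.3% of all genes tested were, with a median of -0.17, and 0 were higher at an unadjusted p under 0.05. CCR7 and CCR9, among the 14 lower and named after their values were seen, passed the filter through their control libraries alone, which favours a lower call. S1PR1, which guides lymphocytes out of lymphoid organs, fell to 5.55 ± 1.41 CPM in peroxide libraries, against 16.6 ± 5.58 CPM in controls (SD, n = 8 each). LAT, the adaptor of the T cell receptor, fell to 3.98 ± 0.885 CPM in peroxide libraries, against 11.2 ± 1.49 CPM in controls (SD, n = 8 each). CD3G, a receptor chain, fell by 0.48 on the log2 scale. LCK, CD3D and CD3E were not called, with 0.04 ± 0.06, 0.01 ± 0.07 and -0.03 ± 0.06 (SE), and were picked with their values in view. The recombinase gene RAG1, chosen likewise, had 93.4 ± 58.6 CPM in peroxide libraries and 197.6 ± 102 CPM in controls (SD, n = 8 each) and fell by 1.15 on the log2 scale (SE 0.34, adjusted p = 0.00795).

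**Figure D4:**
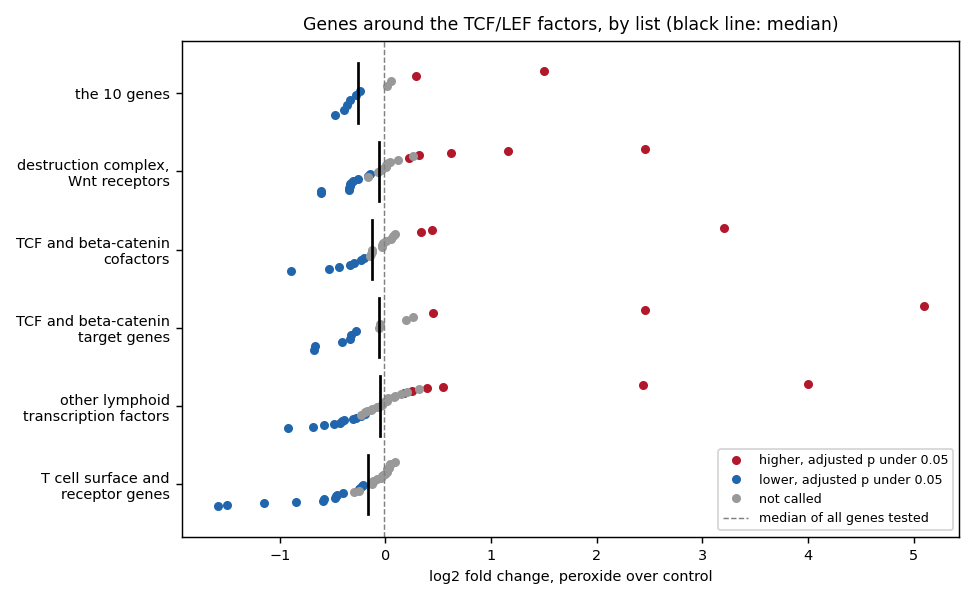
Log2 fold change of peroxide over control for the tested genes of 6 lists, 1 point per gene, with red for higher and blue for lower at an adjusted p under 0.05, grey for not called, a black line at each list's median and a dashed line at the median of all genes. The median of the 10 genes is -0.26, that of the T cell surface and receptor genes -0.17, and those of the other 4 lists lie between -0.13 and -0.05.

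Some members share exon sequence with neighbours, and the tables hold reads that fit several genes apart as ambiguous, 3.70% to 4.94% of counted reads. In GENCODE release 29 TCF7 shares 210 exonic bases with SKP1 on the other strand. SKP1 had 12601 reads in all peroxide libraries and 10431 in all controls. LEF1 shares 279 exonic bases with LEF1-AS1, also on the other strand, which had 1261 and 1653 reads. SATB1 shares 211 bases with TBC1D5 on the same strand, which had 7689 and 11178 reads. TOX shares 169 with an antisense gene that had 1741 and 2320 reads. TCF7L2 and IKZF1 share 300 and 110 bases with antisense genes of at most 64 reads in a group. With the strand setting not given, reads in these antisense overlaps may have been counted for the member, for its partner or as ambiguous.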

How the data were processed

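The deposited tables hold whole-number counts of reads per gene, raw and 1 library each. STAR 2.7.1a, HTSeq 0.6.1 and the build hg19 appear in the submitters' processing notes. The sources used here give neither counting mode nor strand setting. Of the identifiers, 68.0% matched GENCODE release 29 (GRCh38) to the version, and no coordinates were taken from the tables. A symbol table matched 60402 of 60662 genes. The 5 rows naming no gene, with 43.5% to 57.6% of counted reads, were left out.

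Genes kept by filterByExpr by group (14092) were scaled by TMM and tested with edgeR 4.0.16 in R 4.3.3 (quasi-likelihood, terms for batch and group, Benjamini-Hochberg over all genes tested), after a trial on simulated data. SE was taken as the absolute log2 fold change over the root of F. Batch contrasts, ratios and levels per kb were added after the data were seen. Exact permutation tests of the ratios were run and are not given. Members and lists were chosen with earlier results of these data known. Each list gave by name the 3 smallest p among genes averaging at least 1 CPM, and other names are marked. Exon lengths came from release 29, where 1 of the 10 identifiers had the same version. Alternatives were DESeq2 1.42.0, limma-voom (limma 3.58.1), total-count scaling, no filter, no batch term, a replicate block, single batches, and leaving out each library or the 2 with most reads lacking a unique alignment. Every pair of libraries differed by more than counting noise (chi-square per degree of freedom at least 2.97).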

Additional observations from a re-analysis of the deposited data

Results flagged for a closer look

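SATB1 in control 1 stood apart from the other controls. It had 296.9 CPM, and the nearest control had 281.5 CPM. The gap to the nearest library was large for the range of the 8 controls by Dixon's test at the 95% level, 1 such case in the 20 groups of libraries examined, and chance gives about 1 in 20. Control 1 also had the largest share of reads without a unique alignment, 47.2%, whose part in the SATB1 value was not tested. Without control 1, SATB1 fell by 0.35 on the log2 scale (SE 0.07, adjusted p = 0.000147).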

How the results depend on the processing

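The count of genes called ran from 4988 (no batch term, 35.4% of 14092 tested) to 9476 (no filter), against 6810 (48.3%). Without the filter 38177 genes were tested, so 9476 was a smaller share, 24.8%. Under each alternative run 7 or 8 of the 10 genes were called, where 24.8% to 51.1% of all genes tested were. The calls lost were LEF1 without a batch term (-0.28, adjusted p = 0.128) and BCL11B in batch 1 alone (-0.21, adjusted p = 0.102) and in batch 2 alone (-0.27, adjusted p = 0.0592). Leaving out a library ended no call among the 10, and BCL11B had the weakest, from -0.28 to -0.20 (adjusted p 0.00635 to 0.0306). The uncalled TCF7L2 ranged from -0.04 to 0.07 and TOX from -0.01 to 0.08 over all alternatives. With a replicate block 6687 genes (47.5% of those tested) and 8 of the 10 were called. The labels do not say that a number pairs libraries, and same-numbered libraries correlated from -0.219 to 0.296 in their deviations from batch and group means, over 0.1 in 3 of 8 pairs, with 3 of 8 correlating best with their own number. Depth limits TCF7L1 most, with 2 to 13 reads per control.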
